A study of Mus musculus with 11 samples.

Results

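Peroxisomes shorten very long-chain and branched fatty acids and make the first intermediates of plasmalogens, the ether phospholipids. The 7 genes described here cover that route and were taken as a list of names. Abcd3 encodes a membrane transporter for acyl-CoA substrates, and Pex5 the receptor that brings most matrix enzymes into the organelle. Hsd17b4, Acaa1a and Ech1 encode enzymes of the oxidation spiral, and Gnpat and Agps the paired enzymes that start ether lipid synthesis. All 7 were among the 11900 genes with enough reads to be tested, of 37583 gene identifiers in the count files. They lie on separate chromosomes, Abcd3 on 3, Pex5 on 6, Hsd17b4 on 18, Acaa1a on 9, Ech1 on 7, Gnpat on 8 and Agps on 2.

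The study measured poly(A)-selected RNA in granulocyte-monocyte progenitor (GMP) clones from mouse. These progenitors, which give rise to neutrophils and monocytes, came from fetal liver of C57BL/6 embryos at E15.5, from Taz knockout (KO) or wild-type (WT) donors. Taz encodes tafazzin, the mitochondrial transacylase that remodels cardiolipin. There were 5 KO clones and 6 WT clones, each grown from a single cell. All 11 carried retroviral ER-Hoxb8, an estrogen-controlled transcription factor that halts differentiation, and all grew in stem cell factor with 0.5 µM beta-estradiol. Such a clone is an immortalised line held at a progenitor stage, and differences between clones of 1 genotype are part of the spread against which the genotypes are compared. Clones are named by their titles, KO 3H, KO 3I, KO 4J, KO 4K and KO 4L, then WT 1A, WT 1B, WT 1C, WT 2D, WT 2E and WT 2F, and values of single clones are given in that order. The labels used here do not explain the number in a title. The labels do not say whether clones came from separate embryos, and p-values then measure only the spread between clones.

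Reads assigned to genes numbered 19778119 to 23658158 per KO clone and 21966954 to 27431544 per WT clone. Levels are given as CPM, gene counts scaled to library size, with library sizes adjusted by the trimmed mean of M-values (TMM). The targeted gene Taz had 2.21 to 4.09 CPM in KO clones, against 37.0 to 43.8 CPM in WT clones (log2 fold change -3.60, SE 0.14, edgeR adjusted p = 4.079e-07). Progenitor and primary granule markers, among them Kit, Cd34 and Mpo, were present in every clone, while the listed T-lymphoid markers summed to at most 0.109 CPM and the listed hepatocyte markers to at most 1.95 CPM. Genes of maturing neutrophils were uneven: 10 of them summed to 15 to 142 CPM in KO clones and to 19.1 to 1531 CPM in WT clones, with WT 2D highest and WT 1A next among WT clones at 108 CPM. The B-lymphoid markers summed to 5.02 to 27.9 CPM in KO clones and to 30.9 to 50.6 CPM in WT clones, with Cd79b called lower in KO and Pax5 at 0, and their part in the results below was not tested.

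Inside cells ABCD3 and related transporters of the peroxisomal membrane carry acyl-CoA into the organelle. Each round of shortening opens with an oxidation, HSD17B4 performs the next pair of steps, and a thiolase such as ACAA1A releases acetyl-CoA. ECH1 shifts double bonds so that unsaturated chains can enter the spiral. GNPAT adds an acyl chain to dihydroxyacetone phosphate and AGPS exchanges it for a fatty alcohol, which forms the ether bond. Myeloid cells are rich in ether phospholipids, which makes this arm of the organelle relevant to granulocytes and macrophages.

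The promoters of Abcd3, Agps and Gnpat are shown because Abcd3 was the member that passed the test between genotypes, Agps the one that varied most among clones, and Gnpat its partner enzyme, which varied little. They run from 250 bases before to 50 bases after a RefSeq start in the GRCm38.p6 assembly, written 5′ to 3′ on the gene's strand, with capitals for motif matches. Abcd3 lies on the minus strand of chromosome 3 (chr3:121815253-121815552), and the upstream of its 2 listed starts is shown. Agps lies on the plus strand of chromosome 2 (chr2:75831927-75832226) and Gnpat on the plus strand of chromosome 8 (chr8:124862783-124863082).
Abcd3: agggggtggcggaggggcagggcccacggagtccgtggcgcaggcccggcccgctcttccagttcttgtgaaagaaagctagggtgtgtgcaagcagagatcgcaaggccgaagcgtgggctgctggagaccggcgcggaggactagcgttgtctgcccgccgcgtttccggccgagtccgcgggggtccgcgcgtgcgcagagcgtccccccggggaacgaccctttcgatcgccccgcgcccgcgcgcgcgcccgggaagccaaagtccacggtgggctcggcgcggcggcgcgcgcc
Agps: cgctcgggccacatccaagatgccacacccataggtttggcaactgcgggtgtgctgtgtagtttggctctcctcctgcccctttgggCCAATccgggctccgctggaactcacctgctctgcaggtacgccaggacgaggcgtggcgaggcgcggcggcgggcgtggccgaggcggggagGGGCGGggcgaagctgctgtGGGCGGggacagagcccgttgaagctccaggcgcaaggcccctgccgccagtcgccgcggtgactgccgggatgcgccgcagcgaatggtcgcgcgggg
Gnpat: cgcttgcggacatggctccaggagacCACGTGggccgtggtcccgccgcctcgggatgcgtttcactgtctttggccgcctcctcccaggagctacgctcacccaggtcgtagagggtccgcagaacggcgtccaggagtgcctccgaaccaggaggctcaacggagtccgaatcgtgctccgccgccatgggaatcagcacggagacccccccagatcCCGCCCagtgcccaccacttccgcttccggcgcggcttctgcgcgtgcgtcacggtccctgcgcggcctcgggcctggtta
Motif patterns, 6 in all, were searched on both strands: the GC box GGGCGG, the CCAAT box, the E-box CACGTG, the cyclic AMP response element TGACGTCA, the composite TGATGNAAT bound by ATF4 with C/EBP proteins, and the direct repeat of PPAR and RXR, a repeat of AGGTCA with 1 base between the copies. The Agps window held 1 CCAAT box and 2 GC boxes, and the Gnpat window 1 E-box and 1 GC box, none overlapping another. The Abcd3 window held no match, with a GC content of 73.7%, against 71% for Agps, 68.7% for Gnpat and a median of 52.7% over all promoters. Among 32851 RefSeq promoters of the same length, 35.7% held the GC box, 37.4% the CCAAT box, 7.15% the E-box, 1.79% the cyclic AMP response element, 0.965% the composite and 0.0396% the direct repeat. The direct repeat was absent from all windows listed for the 6 members with a promoter in the table, which are these 3 and Acaa1a, Ech1 and Pex5.

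Abcd3 was the 1 member of 7 called different between genotypes, and it was higher in KO clones; no member was called lower by edgeR, by DESeq2 or by limma-voom. Over all 11900 genes tested, 5.05% were called in either direction (edgeR's robust quasi-likelihood test, Benjamini-Hochberg adjusted p under 0.05), 2.76% as higher and 2.29% as lower in KO. The other 6 members had negative log2 fold changes that did not pass, and the median of the 7 was -0.08, against -0.01 over all genes tested. At an unadjusted edgeR p under 0.05 there were 2 of the 7, Abcd3 and Acaa1a, beside 2417 of the 11900 genes tested. Counts at unadjusted p in the lists below stand against that same background. In none of the 7 did the KO clones and the WT clones occupy separate ranges. Over all genes tested 5.99% had separate ranges, so few or none would be expected among 7 genes.

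**Figure D1:**
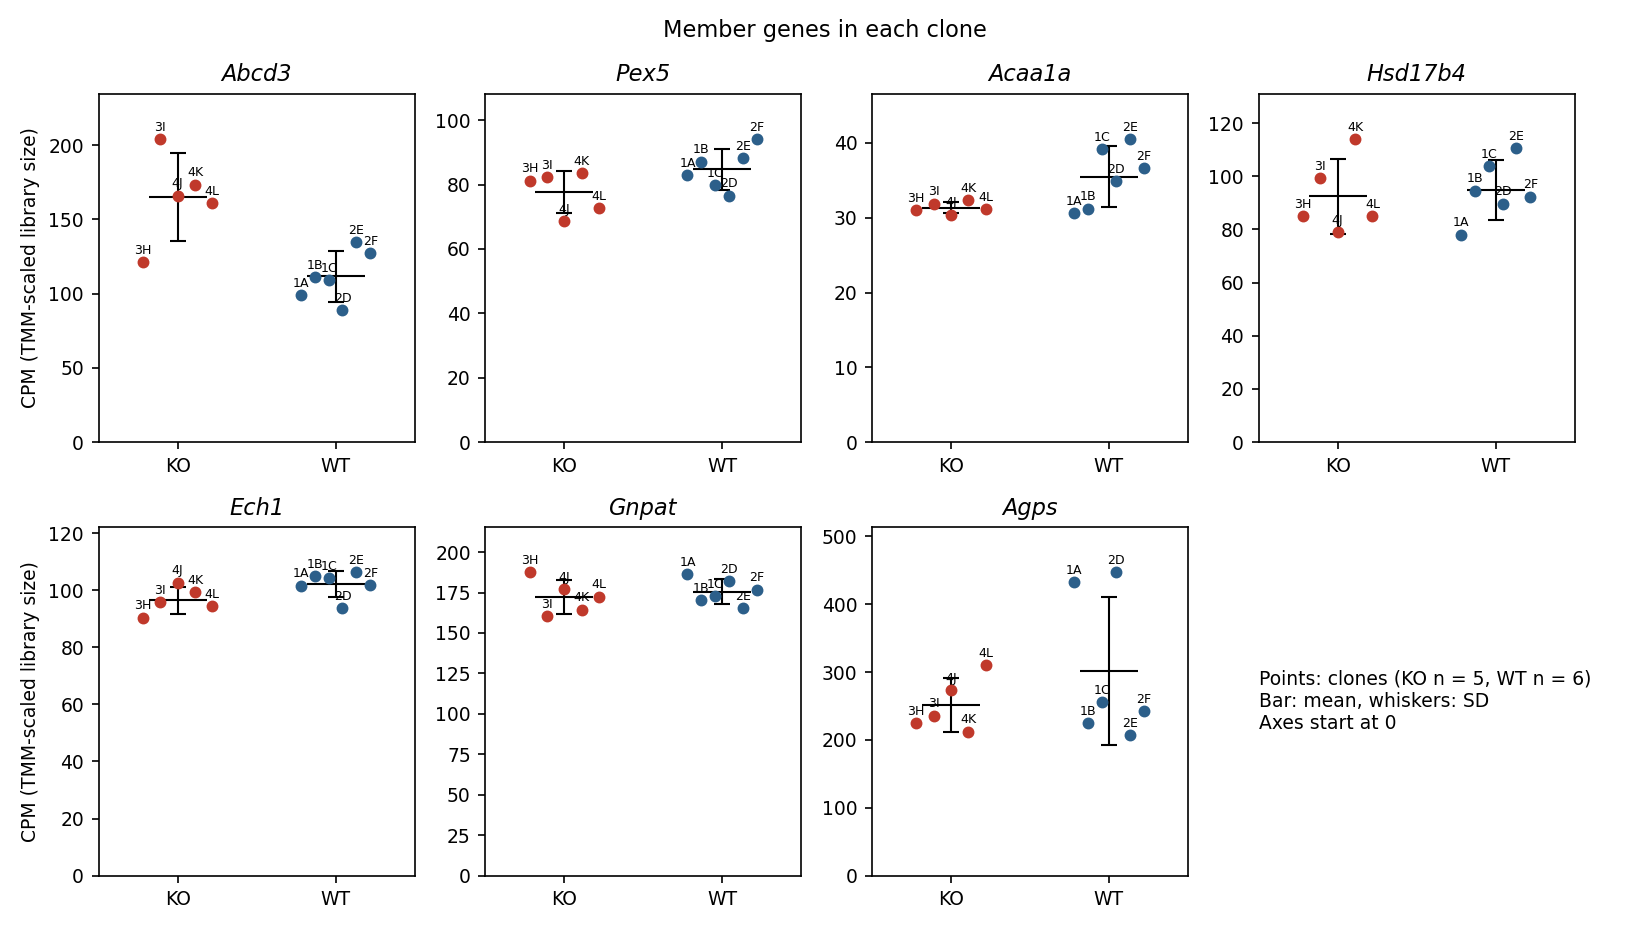
Level of each member in each clone, in CPM with TMM-scaled library sizes (vertical axes start at 0); points are clones, KO (n = 5) left of WT (n = 6), bars are means and whiskers SD. For Abcd3, 4 of 5 KO clones lie above all 6 WT clones; for Agps, WT 1A and WT 2D stand above the other clones.

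Abcd3 (ENSMUSG00000028127) encodes the most abundant transporter of the peroxisomal membrane in many tissues. It had 121, 204, 166, 173 and 161 CPM in KO clones, against 98.8, 111, 109, 89.0, 135 and 127 CPM in WT clones. The means were 165 ± 29.8 CPM in KO (SD, n = 5) and 112 ± 17.2 CPM in WT (SD, n = 6). The 4 highest KO clones were above every WT clone, while KO 3H lay below WT 2E and WT 2F. Abcd3 was 1.48-fold higher in KO (log2 fold change 0.56, SE 0.14), with an edgeR adjusted p of 0.0405. Each library held between 2060 and 4810 Abcd3 counts, so counting error was small beside the spread between clones.

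The size of the Abcd3 difference was steadier than its call. Leaving out 1 clone at a time gave log2 fold changes of 0.48 to 0.66 and edgeR adjusted p-values of 0.0229 to 0.102. The call was lost on leaving out KO 3I, KO 4J, KO 4K, KO 4L, WT 1A, WT 1B, WT 1C, WT 2D or WT 2F, that is in 9 of 11 cases; it was kept without KO 3H (adjusted p = 0.0229) and without WT 2E (adjusted p = 0.0344). Counts summed within each title number, which leaves 2 sums per genotype, gave an edgeR adjusted p of 0.0449. Without WT 1A and WT 2D, the clones highest in Agps and Elane, the log2 fold change of Abcd3 was 0.45 (edgeR adjusted p = 0.0891).

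Abcd3 also moved with mast cell and basophil genes. The 4 listed markers, Cpa3, Mcpt8, Fcer1a and Gata2, summed to 2132, 4484, 3253, 4900 and 2959 CPM in KO clones, and to 1227, 2630, 2678, 1069, 3892 and 2438 CPM in WT clones. Cpa3, a mast cell protease that early progenitors also express, made up most of the sum, whereas the defining IgE receptor chain Fcer1a reached at most 0.0736 CPM. EdgeR called 0 of the 3 listed genes that could be tested, and 0 were at an unadjusted p under 0.05. After each genotype's mean was subtracted, Abcd3 followed the score of this list across the 11 clones (Pearson r = 0.85 and Spearman rho = 0.8, with r = 0.79 without WT 1A and WT 2D), a description over values that share a library. This list was not alone. Abcd3 ran against the late neutrophil score (r = -0.713) and the progenitor and primary granule score (r = -0.634). The listed megakaryocyte markers summed to 108, 221, 170, 235 and 186 CPM in KO clones. In WT clones they summed to 114, 167, 145, 62.4, 219 and 171 CPM. Like Abcd3 they were lowest in KO 3H and WT 2D, and their correlation with it was not computed. With the score as a covariate, chosen after the data were seen, the Abcd3 log2 fold change was 0.36 (SE 0.09, edgeR adjusted p = 0.0415). In bulk RNA, more cells of a type and more RNA per cell cannot be told apart.

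Abcd2, a related transporter with overlapping substrates, varied too widely among clones to be placed, at 0.518 to 48.6 CPM in KO and 4.56 to 84.4 CPM in WT.

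Pex5 (ENSMUSG00000005069), the import receptor for proteins that end in the common peroxisomal targeting signal, had 81.2, 82.3, 68.7, 83.4 and 72.6 CPM in KO clones, against 82.9, 87.1, 79.8, 76.5, 88.2 and 94.1 CPM in WT clones. KO 4J and KO 4L were below every WT clone, and the other 3 KO clones lay within the WT range. Its log2 fold change of -0.13 had an SE of 0.07 and did not pass (edgeR adjusted p = 0.323). Its partners did not pass either. Pex7, the import receptor for thiolases and AGPS, averaged 54.7 ± 3.48 CPM in KO and 51.4 ± 4.11 CPM in WT (log2 fold change 0.09, edgeR adjusted p = 0.467). Pex14, a docking protein at the membrane, averaged 17.6 ± 1.62 CPM in KO and 19.3 ± 2.65 CPM in WT (log2 fold change -0.13, edgeR adjusted p = 0.506), and the docking partner Pex13 78.9 ± 4.09 CPM in KO and 78.8 ± 5.28 CPM in WT. Of 15 peroxins tested, 0 were called by edgeR or limma-voom and 1 by DESeq2, as lower; 1 was at an unadjusted p under 0.05. Their median log2 fold change was -0.02, and Pex19, a chaperone of membrane proteins, was the most abundant.

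Among the oxidation enzymes, Hsd17b4 (ENSMUSG00000024507), the multifunctional hydratase and dehydrogenase, did not differ detectably between genotypes. It had 84.9, 99.2, 78.9, 114 and 85.1 CPM in KO clones, against 78.0, 94.6, 104, 89.7, 111 and 92.3 CPM in WT clones. The KO range reached past the WT range only at its upper end. Its log2 fold change of -0.04 was smaller than its SE of 0.11 (edgeR adjusted p = 0.889). Scp2, whose long form is a thiolase for branched chains, averaged 57.0 ± 10.2 CPM in KO and 59.0 ± 6.33 CPM in WT (log2 fold change -0.05, edgeR adjusted p = 0.861).

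Acaa1a (ENSMUSG00000036138), the thiolase of straight-chain oxidation, was the member with the least spread in KO. It had 31.0, 31.9, 30.4, 32.4 and 31.2 CPM in KO clones, against 30.6, 31.2, 39.2, 34.9, 40.5 and 36.7 CPM in WT clones. WT 1A and WT 1B fell within the KO range and the other 4 WT clones above it. The coefficient of variation was 2.46% among KO clones and 11.5% among WT clones; the difference in spread was not tested. The log2 fold change was -0.18 (SE 0.08, unadjusted p = 0.0387, edgeR adjusted p = 0.215). With the mast and basophil score as a covariate, chosen after the data were seen, it was -0.26 and passed (edgeR adjusted p = 0.0473). That was the 1 setting of 28 alternatives in which Acaa1a passed. Its exons overlap those of Myd88 on the other strand by 290 bases in the annotation, and counting was without regard to strand, so reads there cannot be assigned to one of them. The near-identical copy Acaa1b held at most 2 counts in any library. Reads that align to both copies were counted for neither, so the levels of both may be too low.

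Ech1 (ENSMUSG00000053898), the dienoyl-CoA isomerase shared between peroxisomes and mitochondria, had 90.3, 95.7, 103, 99.2 and 94.3 CPM in KO clones, against 102, 105, 104, 93.8, 106 and 102 CPM in WT clones. WT 2D was the lowest of its group, and KO 4J reached the level of the other WT clones. The log2 fold change was -0.08 (SE 0.04, edgeR adjusted p = 0.311). Decr2 and Eci2, further auxiliary enzymes for unsaturated fatty acids, were not called either. Decr2, the peroxisomal dienoyl-CoA reductase, averaged 4.71 ± 1.16 CPM in KO and 3.20 ± 1.02 CPM in WT (log2 fold change 0.56, SE 0.25, edgeR adjusted p = 0.244). Eci2, an enoyl-CoA isomerase, averaged 51.8 ± 4.36 CPM in KO and 47.8 ± 1.82 CPM in WT (log2 fold change 0.11, edgeR adjusted p = 0.290).

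Gnpat (ENSMUSG00000031985), which begins plasmalogen synthesis, was close to constant. It had 187, 161, 177, 165 and 172 CPM in KO clones, against 186, 170, 173, 182, 165 and 177 CPM in WT clones. The 2 ranges covered nearly the same interval. Gnpat had a log2 fold change of -0.03, within its SE of 0.05 (edgeR adjusted p = 0.797). In the annotation 2810004N23Rik shares 88 exon bases with Gnpat on the other strand and Gm16163 shares 280 on the same strand, and reads there cannot be assigned to one of them.

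Agps (ENSMUSG00000042410), the enzyme that makes the ether bond, was the most variable member. It had 225, 236, 273, 212 and 311 CPM in KO clones, against 433, 225, 256, 447, 208 and 242 CPM in WT clones. WT 1A and WT 2D were above all other clones, and the other 4 WT clones lay within or just below the KO range. The means were 251 ± 40.2 CPM in KO (SD, n = 5) and 302 ± 108 CPM in WT (SD, n = 6), and the log2 fold change, -0.26 with an SE of 0.22, did not pass (edgeR adjusted p = 0.557). Without WT 1A and WT 2D, a choice made after the data were seen, the log2 fold change was 0.11 (edgeR adjusted p = 0.626), so its sign rested on those clones.

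The clones highest in Agps were also the highest in Elane, a primary granule gene that encodes neutrophil elastase. Elane had 49.9, 8.87, 73.8, 2.26 and 147 CPM in KO clones, against 373, 30.1, 57.2, 825, 23.3 and 74.4 CPM in WT clones. WT 2D, WT 1A and KO 4L led for both Elane and Agps, while the 10 late neutrophil genes summed to 142 CPM in KO 4L, 1531 CPM in WT 2D and 108 CPM in WT 1A. Within genotypes, Agps followed the late neutrophil score, over the 6 genes of that list with enough reads (Pearson r = 0.76 and Spearman rho = 0.7 over 11 clones, with r = 0.57 without WT 1A and WT 2D). It also followed the progenitor and primary granule score (Pearson r = 0.705 and Spearman rho = 0.773, with r = 0.81 without them). Adjusted for the late neutrophil score, the Agps log2 fold change was -0.08 (edgeR adjusted p = 0.812).

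The ratio of Agps to Gnpat was 1.2 to 1.8 in KO clones and 1.26 to 2.46 in WT clones, with 2.32 in WT 1A and 2.46 in WT 2D, against at most 1.48 in the other 4 WT clones. Far1, the reductase that supplies the fatty alcohol to AGPS, averaged 190 ± 6.75 CPM in KO and 196 ± 10.1 CPM in WT (log2 fold change -0.04, edgeR adjusted p = 0.609). Dhrs7b, the reductase after AGPS, averaged 27.9 ± 1.70 CPM in KO and 27.9 ± 1.59 CPM in WT.

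A further step of the ether lipid list did change. Pcyt2, the enzyme that sets the rate of phosphatidylethanolamine synthesis and so feeds the head group of ethanolamine plasmalogens, had 45.7, 48.5, 46.2, 47.0 and 49.3 CPM in KO clones, against 61, 57.3, 61.5, 63, 62.3 and 57.9 CPM in WT clones. Every KO clone was below every WT clone. Pcyt2 fell by 0.35 on the log2 scale (SE 0.04, edgeR adjusted p = 0.00117). It was the 1 gene called of the 10 tested in this list, whose median log2 fold change was 0.04, with Etnk1, an ethanolamine kinase, the most abundant.

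**Figure D2:**
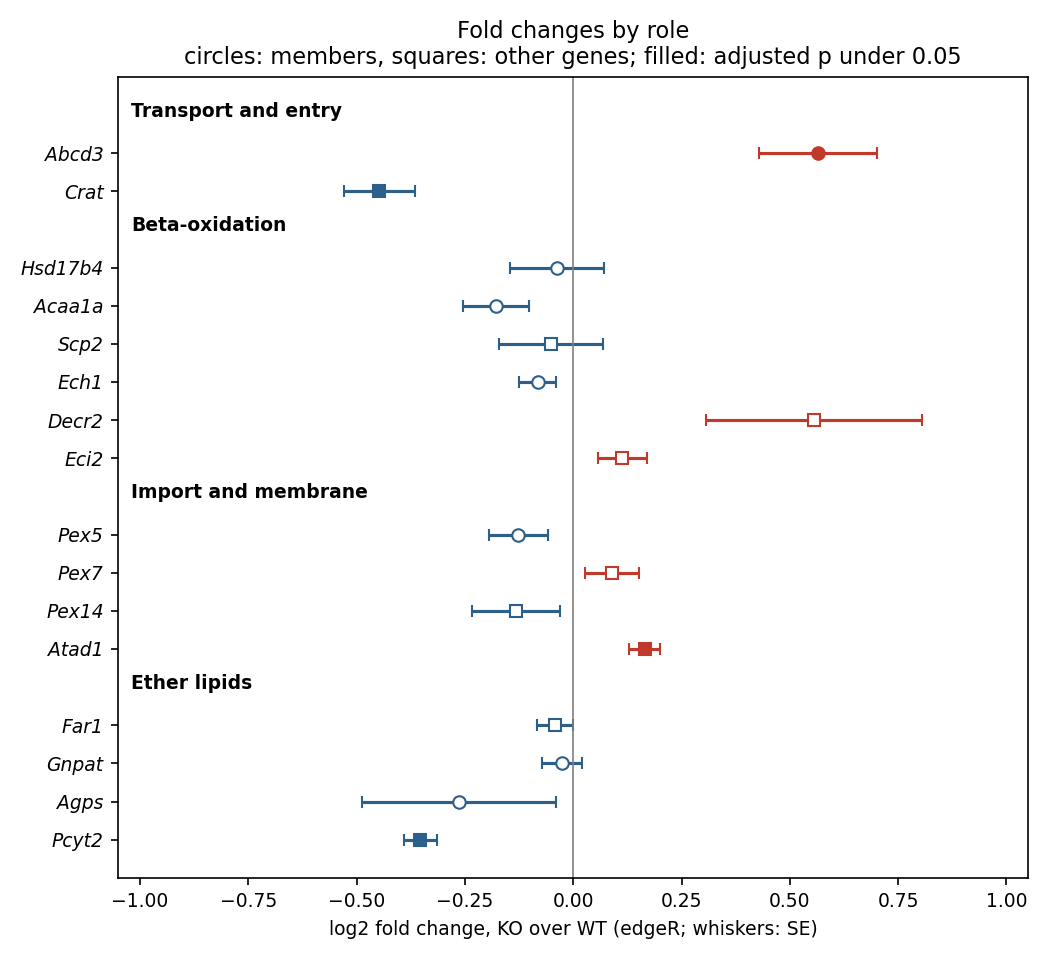
log2 fold change of KO over WT from edgeR (horizontal axis), with whiskers of 1 SE, for members (circles) and other genes of the same steps (squares); filled symbols have an adjusted p under 0.05. Abcd3 is the filled circle, at 0.56, and the filled squares are Crat at -0.45, Atad1 at 0.17 and Pcyt2 at -0.35.

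The wider set of peroxisome genes was called about as often as other genes. Of 97 other genes on 6 lists, 96 were in the matched count files and 76 could be tested; 1 rose and 3 fell in KO, which is 5.26%, beside 5.05% of all genes. Their median log2 fold change was -0.02, with 42 below 0 and 34 above. Among the fallen genes were Crat and Pcyt2, whose KO clones all lay below the WT clones, and the risen gene was Atad1. Of the 19 genes tested for fatty acid entry and oxidation, 2 fell and 0 rose; edgeR called 0 of the 17 other matrix and membrane genes, led in level by Idh1, with 5 at an unadjusted p under 0.05 and 1 called lower by DESeq2. It also called 0 of the 5 regulators, led by Rxrb, with 1 at an unadjusted p under 0.05 and 0 called by DESeq2. Without WT 2D, 3 of the 76 rose and 5 fell.

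Crat, which encodes carnitine acetyltransferase, lets peroxisomal and mitochondrial acetyl groups leave as acetylcarnitine. It had 21.1, 22, 24.1, 24.3 and 21.9 CPM in KO clones, against 36.5, 32.5, 32.5, 28, 27.1 and 29.2 CPM in WT clones (log2 fold change -0.45, SE 0.08, edgeR adjusted p = 0.0129). Atad1, an ATPase that extracts misplaced proteins from mitochondrial and peroxisomal membranes, had 203, 202, 194, 182 and 193 CPM in KO clones, against 173, 174, 168, 176, 169 and 183 CPM in WT clones (log2 fold change 0.17, SE 0.04, edgeR adjusted p = 0.0286). KO 4K lay just below WT 2F, and the call was lost on leaving out WT 1A, WT 1B, WT 1C, KO 3H, KO 3I, KO 4J or KO 4L (adjusted p up to 0.0809). Beside them, 17 mitochondrial beta-oxidation genes had a median log2 fold change of -0.06, and Etfdh, the electron transfer dehydrogenase of that pathway, was the 1 called, averaging 59.0 ± 3.15 CPM in KO and 72.7 ± 4.72 CPM in WT (log2 fold change -0.30, edgeR adjusted p = 0.0121).

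**Figure D3:**
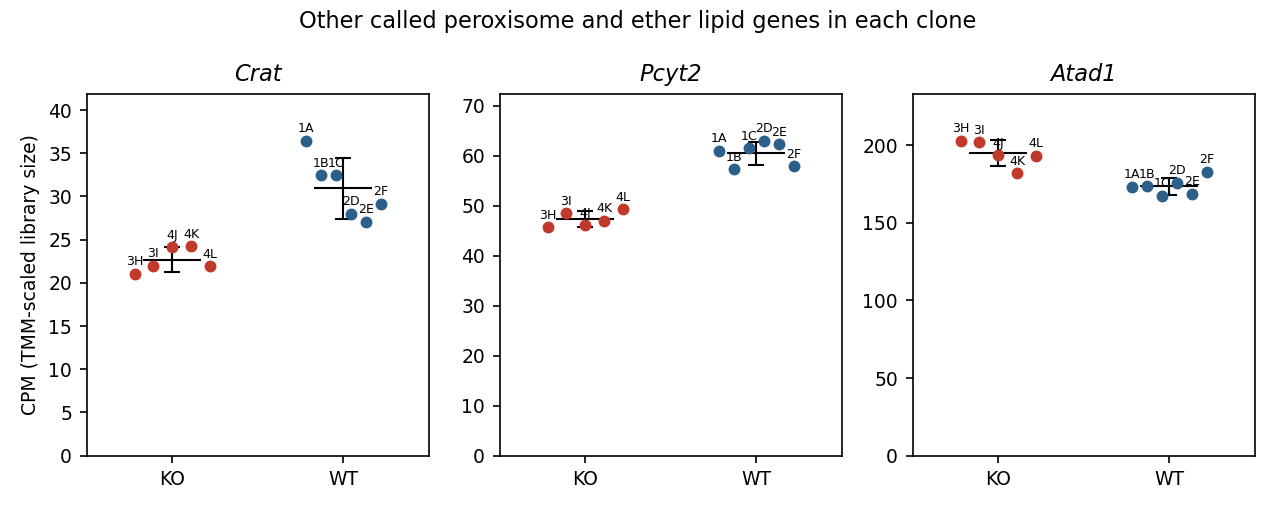
Levels of Crat, Pcyt2 and Atad1, called peroxisome and ether lipid genes, in each clone, in CPM (axes start at 0); points are clones, KO (n = 5) left of WT (n = 6), bars are means and whiskers SD. Crat and Pcyt2 lie lower in all 5 KO clones than in the 6 WT clones, and Atad1 overlaps only at KO 4K and WT 2F.

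These calls depended on which clones entered and on how many. Leaving out a title number also cut the calls over all genes tested. They fell to as few as 24 higher and 8 lower, against 328 and 273 in the reported fit. The loss of clones and the choice of clones cannot be told apart here. Leaving out both clones of title number 3, or the 3 of title number 4, ended the calls of Abcd3 (edgeR adjusted p = 0.0837 and 0.373) and Crat (0.128 and 0.183), and Pcyt2 lost its call only without title number 4 (0.0871). Leaving out the 3 WT clones of title number 1 also ended the calls of Abcd3 (edgeR adjusted p = 0.305) and Crat (0.117), and leaving out those of title number 2 ended the call of Abcd3 (0.0738). Atad1 and Etfdh were not called without any one of the 4 title numbers (edgeR adjusted p from 0.0697 to 0.245 and from 0.061 to 0.219).

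Divided by exon length, the members ranked Gnpat, Ech1, Agps, Hsd17b4, Pex5, Abcd3 and Acaa1a. The length was the union of all annotated exons of a gene. Which transcripts these clones express was not examined, so the ranking depends on that choice. Over the 11 clones the levels per kilobase averaged 48.5 ± 2.45, 43.6 ± 2.30, 29.6 ± 9.01, 27.5 ± 3.55, 20.7 ± 1.82, 20.6 ± 5.43 and 7.62 ± 0.823 CPM in that order (SD, n = 11). Gnpat exceeded Ech1 in 10 of 11 clones and Ech1 exceeded Agps in 9 of 11, all with overlapping ranges. Agps and Hsd17b4 did not separate, with Agps higher in 4 of 11 clones, while Hsd17b4 exceeded Pex5 in 11 of 11 clones with overlapping ranges. Abcd3 and Pex5 changed places: Abcd3 was above Pex5 in 4 of 5 KO clones and below it in 6 of 6 WT clones. Acaa1a alone had a range separate from that of its neighbour, at 6.88 to 9.18 CPM per kilobase.

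**Figure D4:**
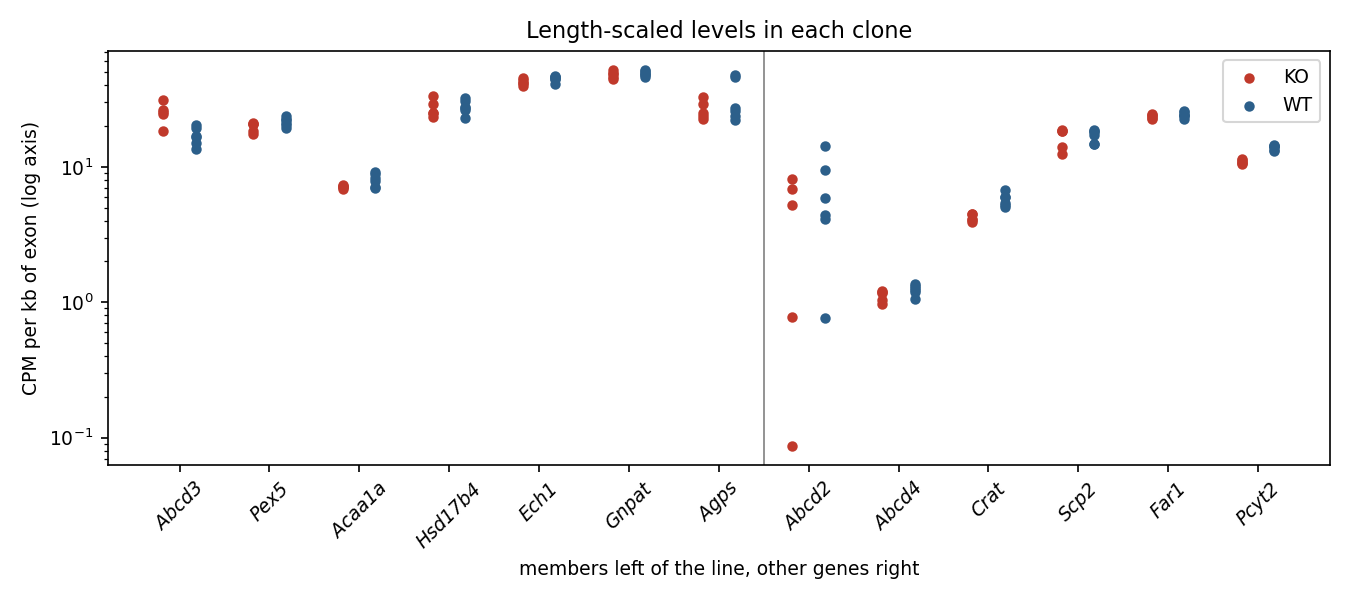
Level per kilobase of exon (CPM per kb, log axis) of the 7 members, left of the line. Right of it are 6 other genes of the same routes or gene families. Each point is a clone, KO left of WT for each gene. Gnpat and Ech1 are the highest members and Acaa1a the lowest, and Abcd2 spreads most among clones.

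The spread within genotypes also set the members apart. On the log2 scale Agps had a within-genotype SD of 0.393, larger than that of 77.5% of the genes tested, and Abcd3 one of 0.247, larger than 65.5%. Hsd17b4 (0.193), Acaa1a (0.127) and Pex5 (0.116) were nearer to the median gene, at 0.154. Ech1 and Gnpat were among the steadier genes, with SDs of 0.0672 and 0.0751.

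After the genotype means were subtracted, the 5 members of transport, oxidation and import varied in one sense. The ether lipid members Agps and Gnpat varied in the other. All 10 Pearson correlations among the 5 were positive (0.0608 to 0.687, median 0.421), Agps and Gnpat correlated at 0.57, and all 10 between the groups were negative (-0.855 to -0.356). These are descriptions over 11 clones whose values share libraries and TMM factors. Without WT 1A and WT 2D the pattern was weaker. Among the 5 genes, 9 of 10 stayed positive (-0.426 to 0.523, median 0.249). Between the groups, 9 of 10 stayed negative (-0.835 to 0.000167), with a median of -0.349 against -0.531 over all 11 clones. Agps with Gnpat then gave 0.257. The most negative pair was Abcd3 with Gnpat (r = -0.855, Spearman rho = -0.809). Gnpat also ran against the mast and basophil score (r = -0.863), and Hsd17b4 against the score of progenitor and primary granule genes (r = -0.857). The pattern is given for the members only, and such correlations were not computed between other genes of these routes. The transporter gene Abcd2 was highest in WT 1A and WT 2D (84.4 and 56.6 CPM), as Agps was. Etnk1 of the ether lipid list was lowest in WT 2D (248 CPM), while Far2 of that list was highest there (189 CPM).

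**Figure D5:**
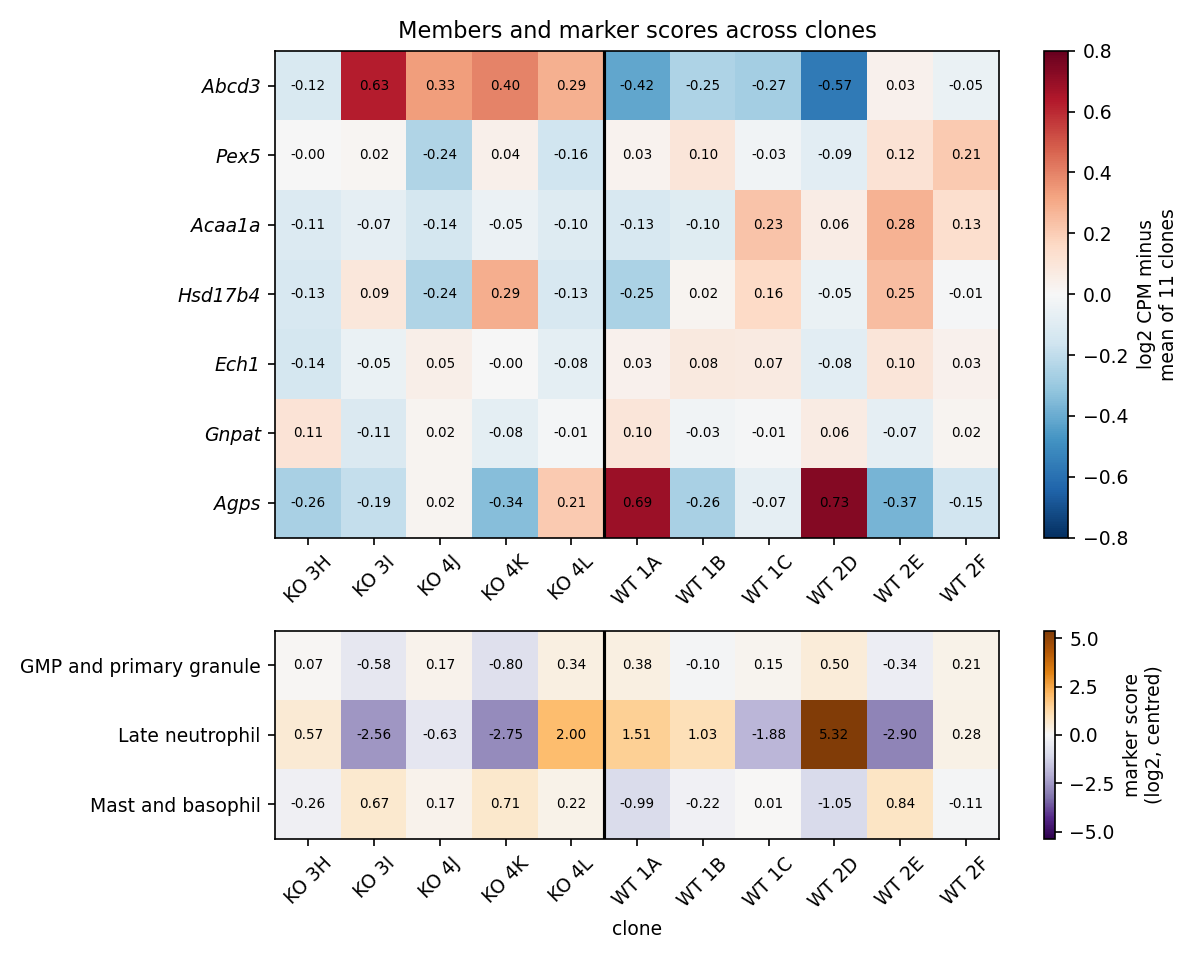
Upper panel, log2 CPM of each member minus its mean over 11 clones; lower panel, centred log2 scores of 3 marker lists; columns are clones, KO left of the black line and WT right of it. Agps is high in WT 1A and WT 2D, where Abcd3 and the mast and basophil score are low, and Abcd3 is high in KO 3I and KO 4K, where that score is high.

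The gene most like each member, by Pearson r of these within-genotype deviations over 11 clones and 9298 genes, was Acap1 for Abcd3 (r = 0.95), Zbtb33 for Pex5 (r = 0.97), Anxa4 for Hsd17b4 (r = 0.972), Cast for Acaa1a (r = 0.92), Icos for Ech1 (r = 0.938), Bbs4 for Gnpat (r = 0.945) and Eif2b1 for Agps (r = 0.981). Spearman rho was 0.7 for Cast and between 0.845 and 0.973 for the others. These are the best of many correlations over few clones and are given as a description.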

How the data were processed

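RNA was poly(A)-selected and made into strand-specific libraries, per the labels' protocols. The authors deposited 1 table of raw read counts per gene for each of the 11 clones; STAR, HTSeq, edgeR and genome build mm9 are named in the submitters' processing notes, without versions, and the names of the deposited tables say that counting was not stranded. Reads outside genes, 5.4 to 6.9% of the gene, ambiguous and no-feature reads together, and reads the tables list as ambiguous stayed out of library sizes. So did alignments listed as not unique, 82.6 to 87.6 per 100 gene counts. Of 37583 gene identifiers, 32860 (87.4%, holding 99.6% of counts) matched a symbol in the GENCODE M21 annotation, which also gave chromosomes and exon lengths; no coordinate of the deposited build is printed.

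Genes were filtered with filterByExpr and tested, KO against WT, with edgeR 4.0.16 (R 4.3.3) using TMM, robust glmQLFit and glmQLFTest, without covariates. P-values were adjusted by Benjamini-Hochberg over all 11900 genes tested, and adjusted p under 0.05 was called. SE is the size of the log2 fold change divided by the square root of F. Log2 CPM used a prior count of 2. Marker scores are means of log2 CPM over the tested genes of a list. The steps were tested on simulated counts with 200 changed genes. EdgeR recovered 55.4% of 1.5-fold, 65.2% of 2-fold and 95.4% of 4-fold changes, with 5 false calls among 146. DESeq2 recovered 72.3%, 71.2% and 96.9%, with 33 false calls among 190. These rates are averages over randomly drawn genes with narrow and wide spreads between clones. A gene with a wide spread that did not pass may therefore still differ by such folds. How closely a single gene was measured is given by its own SE. Among uncalled members the SE of the log2 fold change was 0.224 for Agps. For the others it was 0.0426 (Ech1) to 0.109 (Hsd17b4). Between clones of a genotype, counts differed beyond sampling noise in every pair, with a chi-square per gene of at least 14.5. Alternatives included DESeq2 1.42.0, limma-voom (limma 3.58.1), other normalizations and filters, and leaving out clones.

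The members, gene lists and marker lists were chosen with earlier results of these data known. Named are all members, Taz, partners in the same steps, and, of each list, up to 4 called genes with the smallest adjusted p or, with none called, its most abundant gene, plus the gene most like each member. A planned list of proteins by targeting signal was not made, because no protein sequences were used here. Some genes of the lists are counted there but not reported singly here.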

Additional observations from a re-analysis of the deposited data

Results flagged for a closer look

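Ech1 in WT 2D, at 93.8 CPM, was far below the other 5 WT clones, at 102 to 106 CPM: its gap to the next clone was 0.646 of the group's range, against a critical value of 0.625 for 6 samples. It was 1 of 36 groups examined (18 genes in 2 genotypes), and chance gives about 1 in 20.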

How the results depend on the processing

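Of 28 alternatives, 13 kept the Abcd3 call and 15 lost it, all with a higher level in KO; the members called higher were 0 with no filter on low counts, without title number 1, 2, 3 or 4 and without WT 1A and WT 2D, and 0 to 1 on leaving out single clones. The members called lower were 1 with the mast and basophil score as a covariate. Other normalizations, DESeq2, limma-voom and the fit without robust estimation kept each member's direction and its side of the threshold. The cause of these changes was not tested. Genes called higher over all genes, 328 in the reported fit, were 175 with no filter, 640 with DESeq2, 120 with counts summed per title number, 1039 with title number as a random block (estimated correlation -0.215, below 0), 27, 178, 56 and 24 without title numbers 1, 2, 3 and 4, 546 with adjustment for the late neutrophil score, and 137 to 419 on leaving out single clones. Genes called lower, 273 in the reported fit, were 154, 621, 77, 924, then 18, 118, 36 and 8, then 411, and 103 to 320 under the same settings. Other peroxisome genes called higher, 1 in the reported fit, were 0 with no filter and without any one title number, 2 with a stricter filter, DESeq2 or limma-voom, 7 with the random block against 1 with summed counts, 3 with the late neutrophil score or without WT 1A and WT 2D, 4 with the mast and basophil score, and 0 to 3 on leaving out single clones. Those called lower, 3 in the reported fit, were 6 with DESeq2, 10 with the random block against 2 with summed counts, 1 without title number 1 or 3, 0 without title number 4, 5 with either score or without WT 1A and WT 2D, and 2 to 5 on leaving out single clones. Signs turned for members that were not called: Agps to 0.11 and Gnpat to 0.00881 without WT 1A and WT 2D, and to 0.10 and 0.0343 with the mast and basophil score. Hsd17b4 turned to 0.00414 without title number 2 and ranged from -0.12 to 0.0151 on leaving out single clones. Scp2 turned to 0.0297 and 0.00447 without title numbers 1 and 3 and 0.0212 with the mast and basophil score (single clones left out, -0.10 to 0.0367). The settings without WT 1A and WT 2D and with the mast and basophil score were chosen after seeing the data. No paired analysis was possible because the genotypes share no title number.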

Other observations

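Slc27a2, a very long-chain acyl-CoA synthetase of peroxisomes and endoplasmic reticulum, was singled out after its values were seen. It had 10.8, 7.56, 12.0, 4.24 and 10.5 CPM in KO clones, against 3.76, 2.29, 2.14, 4.23, 0.773 and 4.56 CPM in WT clones. Only KO 4K fell within the WT range. The log2 fold change was 1.60 (SE 0.42), and it missed the threshold (edgeR adjusted p = 0.0529), passing in 9 of 28 alternatives, with adjusted p-values of 0.00307 to 0.319 over them.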
